A study of Mus musculus with 15 samples.

Results

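The enzymes that add and remove methyl groups on histones and DNA were followed as a set of 42 genes in mouse liver RNA. The set was a list of gene symbols chosen by name: 3 DNA methyltransferases, 3 TET dioxygenases, 4 subunits of Polycomb repressive complex 2, 10 lysine demethylases, 15 methyltransferases and cofactors of the SET domain, H3K9 and DOT1L kinds, 5 arginine methyltransferases and 2 SMYD proteins. Of the 42 genes, 41 were found by symbol among the 20325 genes quantified, and Setd1b was not analysed here. The filter on low counts kept 40 of the 41 among 12377 genes, and Tet1 did not pass it.

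All mice were male C57BL/6J, a common inbred laboratory strain, and liver was taken at 19 weeks of age. Conventionally raised (ConvR) mice had carried a gut microbiota all their lives, germ-free (GF) mice lived in isolators without microorganisms, and conventionalized (ConvD) mice, raised GF, received at 15 weeks a single gavage of cecal contents taken from ConvR donors on chow and then lived in filter-top cages for 4 weeks. Feeding began at 3 weeks with either HF/HS, a diet high in fat and sucrose with 44.6% of energy as fat, 40.6% as carbohydrate and 14.8% as protein, or chow, with 23.7%, 53.2% and 23.1%. The 5 groups of 3 mice were ConvR on HF/HS, GF on HF/HS, ConvD on chow, ConvR on chow and GF on chow. Cages were shared by mice of 1 group, so cage and isolator cannot be told apart from colonization and diet. Expected counts, which are RSEM's estimates of the reads of each gene, totalled between 14737578 and 21794811 per library.

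Methylation of DNA at cytosine and of histones at lysine and arginine is written by methyltransferases that use S-adenosylmethionine as donor. It is removed by dioxygenases of the TET and JmjC families, which need iron and 2-oxoglutarate, and by flavin-dependent demethylases. In liver, an organ rich in the methionine cycle that makes the donor, these enzymes are known for their part in hepatocyte maturation, silencing of fetal genes and metabolic gene control. Transcript levels do not measure enzyme activity or the marks themselves. In bulk liver, fewer cells of a type and less RNA per cell cannot be told apart.

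The data showed a set of transcripts that differed little between the groups. In 6 comparisons of groups, 4 members passed an adjusted p of 0.05, each in 1 comparison. In the order in which the comparisons follow, 2.5%, 0%, 0%, 0%, 5% and 2.5% of the members passed. Of all genes tested, 4.72%, 5.59%, 5.5%, 1.62%, 14.6% and 9.55% did. No member differed by as much as 2-fold in the fitted value. Differences of that size were found in 3.74%, 2.39%, 3.48%, 2.53%, 4.67% and 3.33% of all genes tested, in the order in which the comparisons follow, and in 4.36% for the interaction. Setd7, which monomethylates histone H3 at lysine 4 and also methylates other proteins, was higher in ConvR than in GF livers on chow. Prmt1, which makes most of the asymmetric dimethylarginine in mammalian cells, and Prmt3, a cytosolic arginine methyltransferase known for methylating a protein of the small ribosomal subunit, were lower on HF/HS than on chow in ConvR livers. Smyd2, which methylates lysines of histones, p53 and other proteins, was lower on HF/HS than on chow in GF livers. Each call was lost in some of 28 refits with other scalings, filters or tests, or with libraries left out. That was so in 8 for Setd7, 4 for Prmt1, 9 for Prmt3 and 18 for Smyd2.

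The stretches of 250 bases before the annotated starts of these 4 genes are printed because they are the members the comparisons turned on. They are read 5′ to 3′ on the gene's own strand from RefSeq on build GRCm38.p6, with each CG dinucleotide, the site that DNA methyltransferases act on, in capitals. The windows are chr3:51560824-51561073 on the minus strand for Setd7, chr7:44986421-44986670 on the minus strand for Prmt1, chr7:49778108-49778357 on the plus strand for Prmt3 and chr1:189922292-189922541 on the minus strand for Smyd2.
Setd7: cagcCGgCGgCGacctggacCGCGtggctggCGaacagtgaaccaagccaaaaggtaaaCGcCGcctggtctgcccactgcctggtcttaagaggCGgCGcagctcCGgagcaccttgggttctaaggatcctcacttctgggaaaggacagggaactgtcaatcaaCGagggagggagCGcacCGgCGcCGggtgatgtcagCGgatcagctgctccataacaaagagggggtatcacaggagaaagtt
Prmt1: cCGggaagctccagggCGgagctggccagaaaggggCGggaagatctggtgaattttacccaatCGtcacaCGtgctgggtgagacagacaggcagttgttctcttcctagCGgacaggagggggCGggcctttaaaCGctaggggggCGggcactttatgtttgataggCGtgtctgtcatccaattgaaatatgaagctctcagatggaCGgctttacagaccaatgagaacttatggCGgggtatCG
Prmt3: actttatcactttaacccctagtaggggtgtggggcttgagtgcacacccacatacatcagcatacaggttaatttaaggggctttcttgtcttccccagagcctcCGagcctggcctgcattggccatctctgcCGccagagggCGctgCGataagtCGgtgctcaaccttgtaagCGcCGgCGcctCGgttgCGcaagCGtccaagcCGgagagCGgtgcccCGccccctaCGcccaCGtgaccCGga
Smyd2: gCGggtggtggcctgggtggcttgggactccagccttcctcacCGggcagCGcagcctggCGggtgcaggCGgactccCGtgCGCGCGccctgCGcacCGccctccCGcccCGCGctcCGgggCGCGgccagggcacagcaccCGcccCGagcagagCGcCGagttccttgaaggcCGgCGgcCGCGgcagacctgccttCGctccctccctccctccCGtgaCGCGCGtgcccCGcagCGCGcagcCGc

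The Setd7 stretch held 17 CG dinucleotides, that of Prmt1 13, that of Prmt3 17 and that of Smyd2 34. Among letters searched on both strands, the GC box GGGCGG, which itself contains a CG, occurred 4 times before Prmt1, once before Prmt3, 3 times before Smyd2 and not before Setd7. The letters CCAAT occurred 3 times before Prmt1 and once before Prmt3, and TATAAA in none of the 4. Over windows of 300 bases, which run 50 bases further past the start, 32 of the 42 members had an entry. Those without were Ash1l, Ash2l, Carm1, Kdm2a, Kdm4b, Kdm5a, Kdm6b, Nsd1, Setd1b and Smyd3. The median count of CG dinucleotides was 24 in the members and 7 in 27025 genes of the table, and 20 or more were present in 65.6% of the members' windows against 26.8% of all. GGGCGG was present in 65.6% against 35.9%, CCAAT in 46.9% against 37.9% and TATAAA in 3.12% (1 member) against 14.2%. The 27025 genes were not limited to those that passed the filter on low counts in liver, as most members did. The contrasts thus do not set the members against genes expressed alike. All of these are counts of letters, and methylation of these windows was not measured.

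Levels between genes were compared in TPM, as deposited, which state abundance relative to gene length and library total. The mean over 15 livers had a median of 6.06 TPM among the 40 members that passed the filter and of 7.83 TPM among all genes that passed. Setd3, known as the methyltransferase of a histidine in actin, had the highest level, with 34.4 TPM in the lowest library, a median of 44.2 and 54.6 in the highest. Ehmt2 (also called G9a), which with its partner Ehmt1 makes mono- and dimethylated H3K9, followed with a mean of 19.8 TPM. Smyd2 with 14.9, Prmt1 with 14.4 and Kdm2a, an H3K36 demethylase, with 13.4 TPM came next, and the ranges of these 3 over the libraries overlapped. At the low end stood Suv39h2, which trimethylates H3K9, with 0.15 to 0.4 TPM from 6 to 20 expected counts per library. Tet1 was at 0 to 0.04 TPM, from 0 to 5.97 expected counts.

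**Figure D1:**
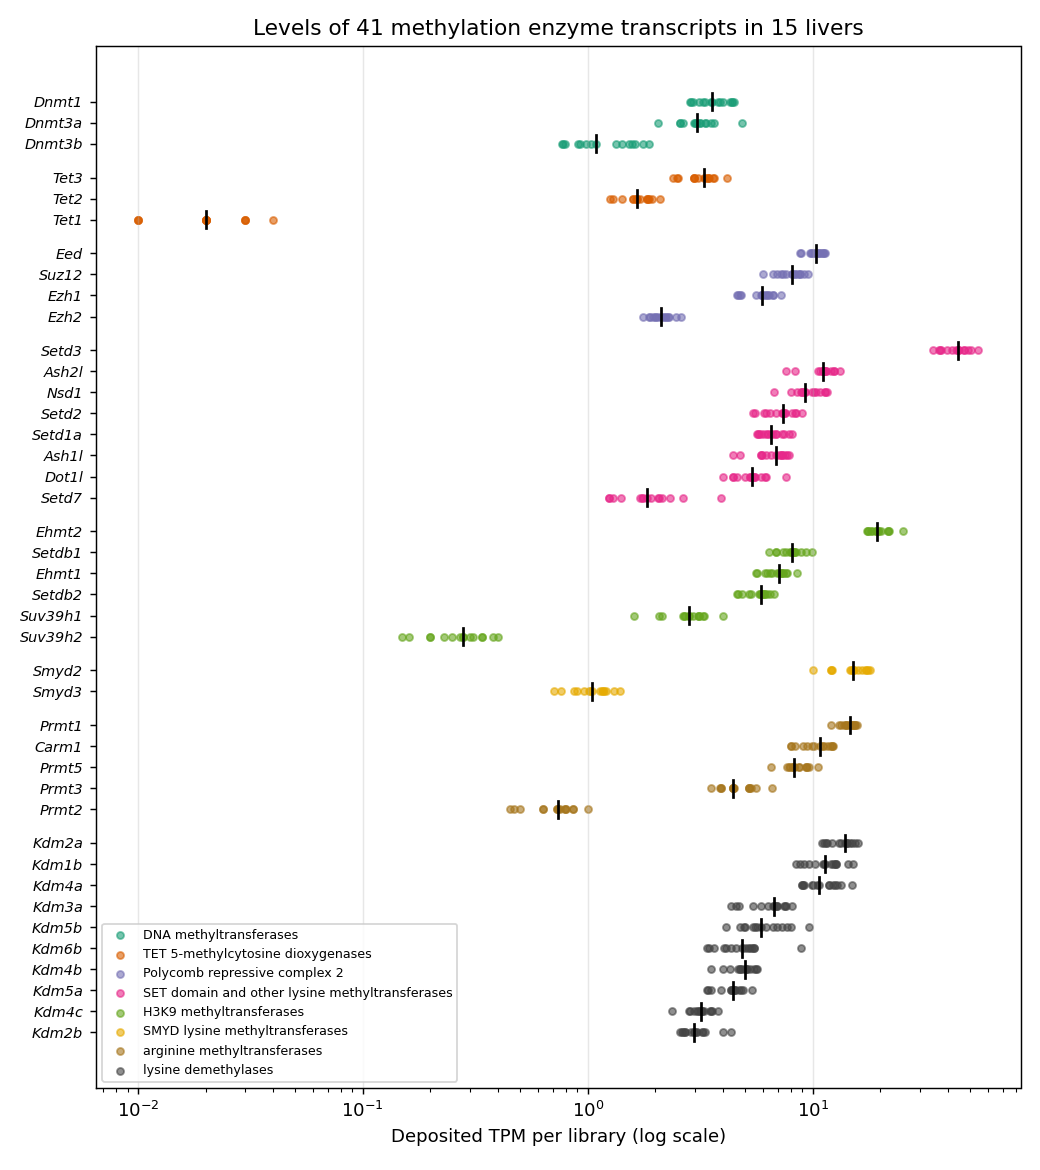
Deposited TPM of 41 members in each of 15 livers on a log axis, grouped by enzyme family and ordered by mean level, with a black tick at the median; libraries in which Tet1 was listed at 0 are not drawn. Setd3 lay highest at 34.4 to 54.6 TPM and Tet1 lowest, at no more than 0.04 TPM.

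Within families of related enzymes the paralog with the largest mean share of summed TPM was the same in every group, except among the DNA methyltransferases. Among the DNA methyltransferases, Dnmt1, the maintenance enzyme, held 45.6% ± 4.99, Dnmt3a, a de novo enzyme, 39.0% ± 5.14, and Dnmt3b, the other de novo enzyme, 15.4% ± 4.54 (mean and SD over 15 livers). In GF chow livers Dnmt3a held 44.0% ± 10.2 and Dnmt1 39.2% ± 6.12, with overlapping ranges. Tet3 held 65.1% ± 2.50 and Tet2 34.5% ± 2.44 of the TET family, whose members oxidize 5-methylcytosine. Ezh1 held 73.1% of the catalytic subunits of Polycomb repressive complex 2, which methylates H3K27, and Ezh2, the form linked with dividing cells, 26.9%. Kdm4a held 57.8%, Kdm4b 25.5% and Kdm4c 16.7% of the KDM4 family, which demethylates H3K9 and H3K36. Among the arginine methyltransferases Prmt1 held 37.2%, Carm1 26.8%, Prmt5 22.0%, Prmt3 12.1% and Prmt2 1.85%. The Dnmt3b share was 9.07% to 10.2% in ConvR HF/HS livers, against 13.1% to 21.1% in GF HF/HS livers, 15.4% to 18.9% in ConvD chow livers, 12.4% to 23.5% in ConvR chow livers and 11.6% to 19.4% in GF chow livers, and the first range overlapped none of the others. It was picked out after the values were seen, and the difference in share was not tested.

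**Figure D2:**
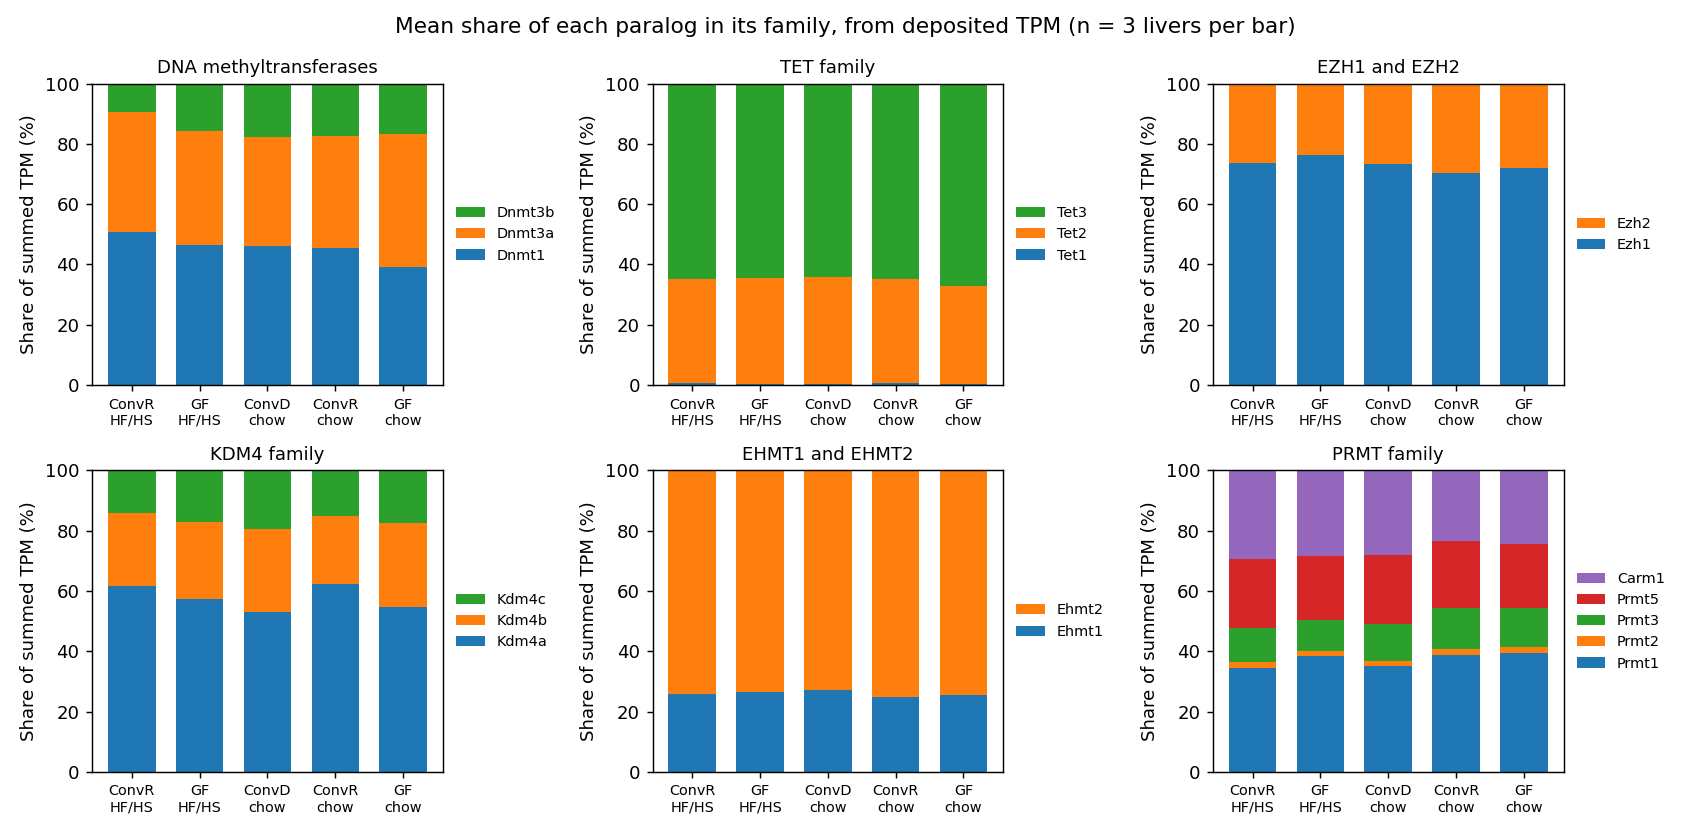
Stacked bars give the mean share (%) of each paralog in the summed TPM of its family in the 5 groups (3 livers per bar). The Dnmt3b share was lowest in ConvR HF/HS livers, at a mean of 9.51%, and in each of the other 5 panels the same paralog led in every bar.

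The rest of the values are CPM, counts relative to the library total after TMM, a method that sets libraries level on the bulk of their genes. CPM compares 1 gene between libraries and is not scaled by length. Over the 15 libraries the SD of log2 CPM had a median of 0.160 among the 40 members, with 0.081 for Kdm2a as the lowest and 0.480 for Dnmt3b as the highest. It was 0.232 among all genes tested and 0.226 among the 10080 genes within the members' range of mean level. Within groups the SD had a median of 0.136 among the members and 0.181 among genes in that range. The most variable members after Dnmt3b were Setd7, Suv39h2 and Kdm6b, and of these Suv39h2 had the lowest counts.

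Some libraries stood apart. GF chow 1 gave the highest log2 CPM of 15 libraries for 12 of the 40 members, among them Setd3, Ehmt2, Kdm6b, Dnmt3a and Tet3, and for 20.6% of all genes tested. The same library gave the lowest value for 5 members and for 20% of all genes. The 10 immediate early genes examined, induced within minutes of stimulation or handling, summed to 1513 CPM in that library and to no more than 385 in any other. ConvR HF/HS 2 gave the lowest value for 9 members and for 9.82% of all genes, and the highest for 1 member and 9.64% of all genes. The 12 acute phase genes examined summed to 70504, 91993 and 14093 CPM in ConvR chow 1, 2 and 3, and to 10012 to 15178 CPM in the other 12 libraries. Markers of hepatocytes, the labelled tissue's main cell type, summed to 78765 to 143613 CPM over 10 genes, and those of Kupffer cells to 356 to 683 CPM over 10 genes. Over all libraries the sums were 215 to 328 CPM for 7 stellate cell markers, 38.5 to 146 for 5 cholangiocyte markers, 44.5 to 69.0 for 11 proliferation markers, 47.3 to 98.3 for 6 monocyte markers, 3.81 to 8.51 for 8 T and NK cell markers and 1.33 to 5.78 for 5 B cell markers. The members as a set are long genes, with a median of 4329 bases against 2800 in all genes tested. Of the called members, Setd7 was longer than both, at 7356 bases. Prmt3 with 2495, Smyd2 with 1605 and Prmt1 with 1272 bases were shorter than both. The Spearman correlation across genes of gene length with each library's deviation ran between -0.451 and 0.058 in ConvR chow and GF chow libraries and between 0.104 and 0.380 in the other 9.

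The first comparison asks what a lifelong microbiota goes with in chow-fed mice. Setd7 measured 14.1, 11.9 and 9.23 CPM in ConvR chow livers and 6.19, 6.11 and 6.33 CPM in GF chow livers. Every ConvR chow liver was above every GF chow liver, and the ConvR values were the more spread. The means were 11.7 ± 2.46 and 6.21 ± 0.112 CPM (SD, n = 3 each), a log2 fold change of 0.92 ± 0.21 (SE) with an adjusted p of 0.0285 in edgeR's quasi-likelihood test. It was the single call among the 40 members (2.5%), where 4.72% of all genes tested were called and 2.55% were called higher. In the other groups Setd7 had 8.60, 14.9 and 10.4 CPM in ConvR HF/HS livers, 8.65, 9.20 and 8.32 in GF HF/HS livers and 6.29, 7.50 and 9.76 in ConvD chow livers. The highest of all 15 values was thus in a ConvR HF/HS liver, and 2 of 3 ConvD livers lay above every GF chow liver.

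The Setd7 call was lost when ConvR chow 1 (adjusted p = 0.124), ConvR chow 2 (0.107), GF chow 1 (0.0602) or GF chow 2 (0.0527) was left out, and when the 2 groups were fitted alone (0.167). Without ConvR chow 1 and 2 the log2 fold change was 0.57 with an adjusted p of 0.580, with ConvR chow 3 as the lone library assumed to vary like the others. ConvR chow 1 and 2, the libraries with the raised acute phase sums, held the 2 higher ConvR chow values. In the same comparison 10 of 12 acute phase genes were higher and 6 of 10 immediate early genes lower. Kupffer cell markers, of which 2 of 10 were higher, summed to 472 to 576 CPM in ConvR chow livers and 356 to 458 in GF chow livers. Neutrophil markers, of which 2 of 3 tested were higher, summed to 5.07 to 49.9 and 1.26 to 6.81 CPM, with Mpo, Camp and Ngp at 0 in all GF chow libraries. Of 7 stellate cell markers 2 were higher, with sums of 286 to 328 and 215 to 289 CPM, and 1 of 5 monocyte markers tested was higher, with 72.3 to 96.0 and 51.4 to 98.3 CPM. The part of these cells and responses in the Setd7 difference was not tested.

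The remaining 39 members were not called between ConvR and GF livers on chow. Without adjustment 7 further members had a p under 0.05, all lower in ConvR chow livers: Tet3, Kdm3a, Dnmt3a, Ash2l, Kdm4b, Smyd2 and Kdm6b, with log2 fold changes of -0.50 for Kdm6b to -0.27 for Kdm4b. That made 8 of 40 members (20%) with such a p against 23.4% of all genes, and 17.5% against 12.2% counting those lower. Dnmt3a measured 18.2, 15.7 and 17.7 CPM in ConvR chow livers and 29.0, 22.9 and 17.2 CPM in GF chow livers, so the groups overlapped in the third GF liver. Tet3 measured 19.96, 21.6 and 18.6 CPM in ConvR chow livers and 29.5, 25.1 and 22.8 CPM in GF chow livers, and these did not overlap. With the trend on gene length removed from each library, Tet3 passed (log2 fold change -0.37, adjusted p = 0.0266) beside Setd7.

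**Figure D3:**
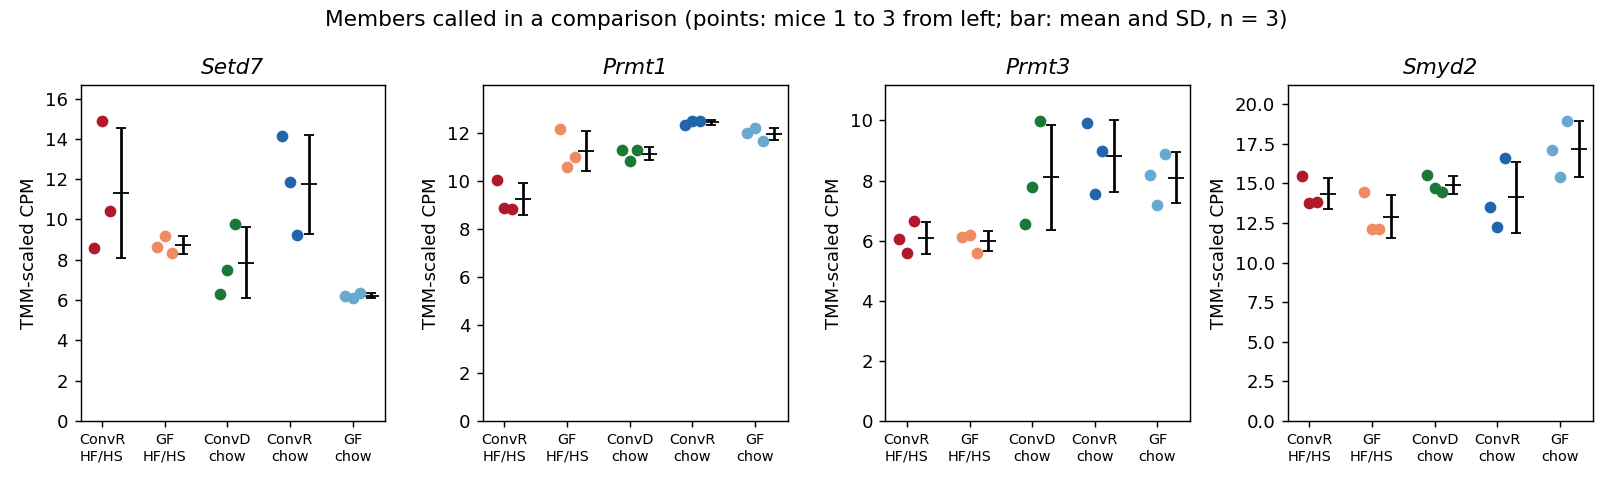
TMM-scaled CPM of Setd7, Prmt1, Prmt3 and Smyd2 in the 5 groups, 1 point per liver, with mean and SD (n = 3) beside the points and axes from 0. Setd7 was tightly grouped at 6.11 to 6.33 CPM in GF chow livers, and Prmt1 was lowest in ConvR HF/HS livers at 8.83 to 10.02 CPM.

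The second comparison concerns colonization in adult life, ConvD against GF livers on chow, with the same GF chow libraries as before. No member passed edgeR's test, where 5.59% of all genes were called. At an unadjusted p under 0.05 there were 6 members (15% against 24.3% of all genes), limma-voom called 0 and DESeq2 called 1, Kdm6b. Kdm6b, which removes methyl groups from H3K27, measured 20.9, 16.4 and 13.98 CPM in ConvD chow livers and 38.3, 23.8 and 24.5 CPM in GF chow livers. All ConvD values were below all GF values, and the first GF liver was far above the others. The log2 fold change was -0.75 ± 0.22 with an adjusted p of 0.0572 in edgeR and 0.0182 in DESeq2, and it was -0.49 (adjusted p = 0.198) without GF chow 1. In the same comparison 8 of 10 immediate early genes were lower, with sums of 42.4 to 103 CPM in ConvD chow livers and 166 to 1513 CPM in GF chow livers. Of 7 endothelial markers 1 was higher and of 5 cholangiocyte markers 1 was lower, and the part of these genes was not tested. Dnmt3a came next with -0.35 ± 0.14 (adjusted p = 0.144), from 17.9, 17.4 and 18.9 CPM in ConvD chow livers against 29.0, 22.9 and 17.2 CPM in GF chow livers. Carm1, which methylates histone H3 at arginine 17, had a log2 fold change of 0.25 ± 0.10 (adjusted p = 0.149), with 22.7 to 23.8 CPM in ConvD chow and 17.0 to 20.8 CPM in GF chow livers. With the length trend removed, Kdm6b, Dnmt3a and Tet3 were called lower.

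**Figure D4:**
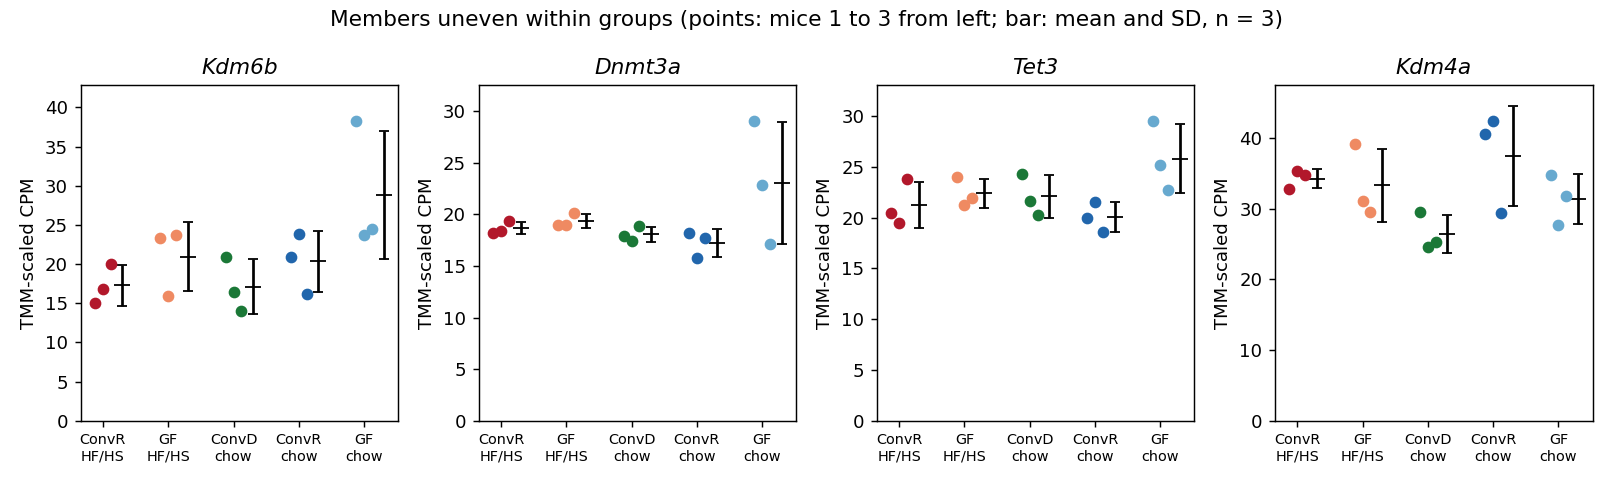
TMM-scaled CPM of Kdm6b, Dnmt3a, Tet3 and Kdm4a in the 5 groups, 1 point per liver, with mean and SD (n = 3) beside the points and axes from 0. GF chow 1 held the highest value of the first 3 genes, and ConvR chow 1 and 2 the highest of Kdm4a.

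The third comparison set ConvD against ConvR livers on chow, adult against lifelong colonization. Again no member passed in edgeR, where 5.5% of all genes were called. At an unadjusted p under 0.05 there were 5 members (12.5% against 23.4%), limma-voom called 0 and DESeq2 called 1, Kdm4a. Kdm4a measured 29.6, 24.6 and 25.3 CPM in ConvD chow livers and 40.6, 42.4 and 29.4 CPM in ConvR chow livers. ConvR chow 1 and 2, those with the raised acute phase genes, were the highest of all 15, and the third was within the ConvD range. The log2 fold change was -0.50 ± 0.14 (adjusted p = 0.0519), -0.65 (adjusted p = 0.00485) without ConvR chow 3 and -0.15 (adjusted p = 0.800) without ConvR chow 1 and 2. In the same comparison 11 of 12 acute phase genes and the 3 neutrophil markers tested were lower. Of 5 cholangiocyte markers 1 was lower, as was 1 of 11 proliferation markers, and the part of these genes was not tested. Setd7 had -0.58 ± 0.20 (adjusted p = 0.101), with the values given above. Kdm3a, an H3K9 demethylase, had 0.30 ± 0.12 (adjusted p = 0.145), from 20.2, 19.4 and 19.7 CPM in ConvD chow livers against 15.8, 16.4 and 16.0 CPM in ConvR chow livers. Those 2 groups were tight and did not overlap.

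On the HF/HS diet, ConvR against GF livers gave no called member in edgeR, DESeq2 or limma-voom, where edgeR called 1.62% of all genes, and 6 members had an unadjusted p under 0.05 (15% against 15.2%). Prmt1 had the smallest p. It measured 10.02, 8.86 and 8.83 CPM in ConvR HF/HS livers and 12.1, 10.6 and 11.0 CPM in GF HF/HS livers, a log2 fold change of -0.28 ± 0.09 (adjusted p = 0.114). Dnmt3b measured 1.77, 1.98 and 2.00 CPM in ConvR HF/HS livers and 5.06, 2.63 and 2.97 CPM in GF HF/HS livers, a log2 fold change of -0.89 ± 0.30 (adjusted p = 0.151). In both genes every ConvR liver was below every GF liver. The Dnmt3b values rested on 40 to 100 expected counts per library over the study. Kdm4c had -0.31 ± 0.11 (adjusted p = 0.170). Of 11 proliferation markers 2 were higher in the same comparison and 8 had an unadjusted p under 0.05, with sums of 52.6 to 69.0 CPM in ConvR HF/HS livers and 47.5 to 52.3 CPM in GF HF/HS livers, and their part was not tested.

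The diet comparison in ConvR mice held 2 of the 4 calls, both of arginine methyltransferases. Prmt1 measured 10.02, 8.86 and 8.83 CPM in ConvR HF/HS livers and 12.3, 12.5 and 12.5 CPM in ConvR chow livers. The means were 9.23 ± 0.682 and 12.4 ± 0.0940 CPM (SD, n = 3 each), a log2 fold change of -0.43 ± 0.09 with an adjusted p of 0.00482. Prmt3 measured 6.05, 5.59 and 6.64 CPM in ConvR HF/HS livers and 9.90, 7.53 and 8.99 CPM in ConvR chow livers. The means were 6.09 ± 0.527 and 8.81 ± 1.19 CPM, a log2 fold change of -0.53 ± 0.15 with an adjusted p of 0.0342. In neither gene did the groups overlap. The other 3 arginine methyltransferases were not called, with log2 fold changes of -0.23 for Prmt5, which makes symmetric dimethylarginine, -0.12 for Prmt2 and 0.08 for Carm1. The 2 of 40 members (5%) stand against 14.6% of all genes called and 7.8% called lower, and 5 members (12.5%) against 29.4% of all genes had an unadjusted p under 0.05.

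The Prmt1 call held with each library left out in turn, with adjusted p from 0.00375 to 0.0278, and had an adjusted p of 0.0897 without ConvR chow 1 and 2. The Prmt3 call was lost when ConvR chow 1 or 3 or ConvR HF/HS 1 or 2 was left out, at adjusted p up to 0.132. Both depended on scaling, as described below. In this comparison all 12 acute phase genes were lower, and the 3 neutrophil markers tested were lower, with 1.43 to 2.50 CPM summed in ConvR HF/HS livers against 5.07 to 49.9 in ConvR chow livers. Of 7 endothelial markers 4 were higher, with sums of 269.5 to 320 against 228 to 257 CPM, and 1 of 10 hepatocyte markers was lower, with sums of 101877 to 109197 against 78765 to 100449 CPM. In addition 1 of 5 cholangiocyte markers and 1 of 7 T and NK cell markers tested were lower and 1 of 11 proliferation markers was higher. Their part in the 2 calls was not tested. Dnmt3b had the third smallest p and the largest fitted difference of the 40 members, with the 1.77 to 2.00 CPM given above in ConvR HF/HS livers against 2.31, 3.01 and 5.13 CPM in ConvR chow livers. Its log2 fold change was -0.86 ± 0.30, with an adjusted p of 0.0740 in edgeR and 0.0496 in DESeq2.

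In GF mice the diet comparison called Smyd2 alone of the 40 members (2.5%), where 9.55% of all genes were called and 5.45% were called lower. At an unadjusted p under 0.05 there were 9 members (22.5% against 26.2%). Smyd2 measured 14.5, 12.1 and 12.1 CPM in GF HF/HS livers and 17.1, 15.4 and 19.0 CPM in GF chow livers. The groups did not overlap, and the means were 12.9 ± 1.36 and 17.2 ± 1.76 CPM (SD, n = 3 each), a log2 fold change of -0.41 ± 0.12 with an adjusted p of 0.0452. In ConvR mice Smyd2 had 15.5, 13.8 and 13.8 CPM on HF/HS and 13.5, 12.2 and 16.6 CPM on chow, and the log2 fold change was 0.02. The Smyd2 call lay close to the threshold: it was lost with 12 of the 15 libraries left out in turn and in 18 of 28 alternatives in all. It held without ConvR chow 2, ConvR chow 3 or GF chow 2. The adjusted p was highest, at 0.151, without GF HF/HS 2 or GF HF/HS 3, and it was 0.101 with the length trend removed, where Tet3 was called in its place. In the same comparison 8 of 10 immediate early genes were lower and 4 of 7 endothelial markers higher, with sums of 68.0 to 104 against 166 to 1513 CPM and 274 to 310 against 198 to 248 CPM. Of 10 Kupffer cell markers 1 was higher, with sums of 393 to 489 against 356 to 458 CPM, and the part of these genes was not tested.

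Prmt3 measured 6.12, 6.20 and 5.59 CPM in GF HF/HS livers and 8.19, 7.20 and 8.90 CPM in GF chow livers, a log2 fold change of -0.44 ± 0.16 that missed the threshold (adjusted p = 0.0917). Prmt3 was therefore at 6.64 CPM or less in all 6 HF/HS livers and at 7.20 CPM or more in all 6 ConvR and GF chow livers, while 1 ConvD chow liver had 6.56 CPM. Prmt1 had a log2 fold change of -0.09 ± 0.09 in GF mice (adjusted p = 0.564). Kdm1b, a flavin-dependent H3K4 demethylase, had 34.1, 31.6 and 35.04 CPM in GF HF/HS livers against 26.6, 29.0 and 27.2 CPM in GF chow livers, a log2 fold change of 0.28 ± 0.09 that was not called (adjusted p = 0.0675).

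Whether the microbiota difference changed with diet was tested as the interaction, the ConvR minus GF difference on HF/HS less that on chow. No member passed in edgeR, DESeq2 or limma-voom. EdgeR called 0% of all genes, limma-voom called 0 genes and DESeq2 called 150. At an unadjusted p under 0.05 there were 3 members (7.5% against 12.7%). Prmt1 had -0.34 ± 0.12 (adjusted p = 0.290), Smyd2 0.44 ± 0.17 (adjusted p = 0.317) and Suz12, a core subunit of Polycomb repressive complex 2, -0.29 ± 0.12 (adjusted p = 0.322). Calls of Prmt1 in ConvR mice and of Smyd2 in GF mice alone are thus not shown to differ between ConvR and GF mice. Comparisons that share a group, such as the 3 that use GF chow livers, are not independent of each other.

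By family, the 3 DNA methyltransferases and 2 TET enzymes tested, the 4 subunits of Polycomb repressive complex 2, the 10 lysine demethylases and the 6 H3K9 methyltransferases had no call in any comparison. Of the 8 other methyltransferases and cofactors of the SET domain and DOT1L kinds 1 was called once (Setd7), of the 5 arginine methyltransferases 2 (Prmt1 and Prmt3), and of the 2 SMYD genes 1 (Smyd2). Of all genes tested, 4.72%, 5.59%, 5.5%, 1.62%, 14.6% and 9.55% were called in the 6 comparisons in the order above. Families of so few genes cannot be told apart from these shares by 1 or 2 calls, or by none. Among the Polycomb subunits, Eed, which binds the methylated histone, lay between 10.7 and 15.5 CPM in all libraries. Suz12 lay between 19.6 and 25.9, Ezh1 between 13.9 and 18.1 and Ezh2 between 2.92 and 4.28 CPM. Dnmt1 lay between 10.05 and 14.01 CPM. Nsd1 and Setd2, which methylate H3K36, lay between 60.4 and 89.9 and between 32.3 and 45.8 CPM. Kdm5b, an H3K4 demethylase, was uneven within groups, with 16.4 to 30.6 CPM in ConvR HF/HS livers, 22.7 to 27.0 in GF HF/HS livers, 21.1 to 37.0 in ConvD chow livers, 18.8 to 27.5 in ConvR chow livers and 20.9 to 32.2 in GF chow livers.

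The size of what could be seen was set by the replicate spread. Standard errors of the members' log2 fold changes ran between 0.076 and 0.381 in the 6 comparisons of groups. The 95% interval of the fold change stayed within 2-fold both ways for 39 of 40 members between ConvR and GF on chow, and for 37, 37, 38, 38 and 40 in the other 5 in the order given above. The exceptions were Setd7, Kdm6b, Dnmt3b, Suv39h2 and Prmt2. The median absolute log2 fold change of the members was between 0.09 and 0.16, against 0.15 to 0.21 over all genes. CPM ranges of the groups did not overlap in 17.5%, 20%, 22.5%, 20%, 22.5% and 25% of the members, against 19.6%, 28.8%, 30.2%, 27.4%, 32.3% and 31.5% of all genes.

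**Figure D5:**
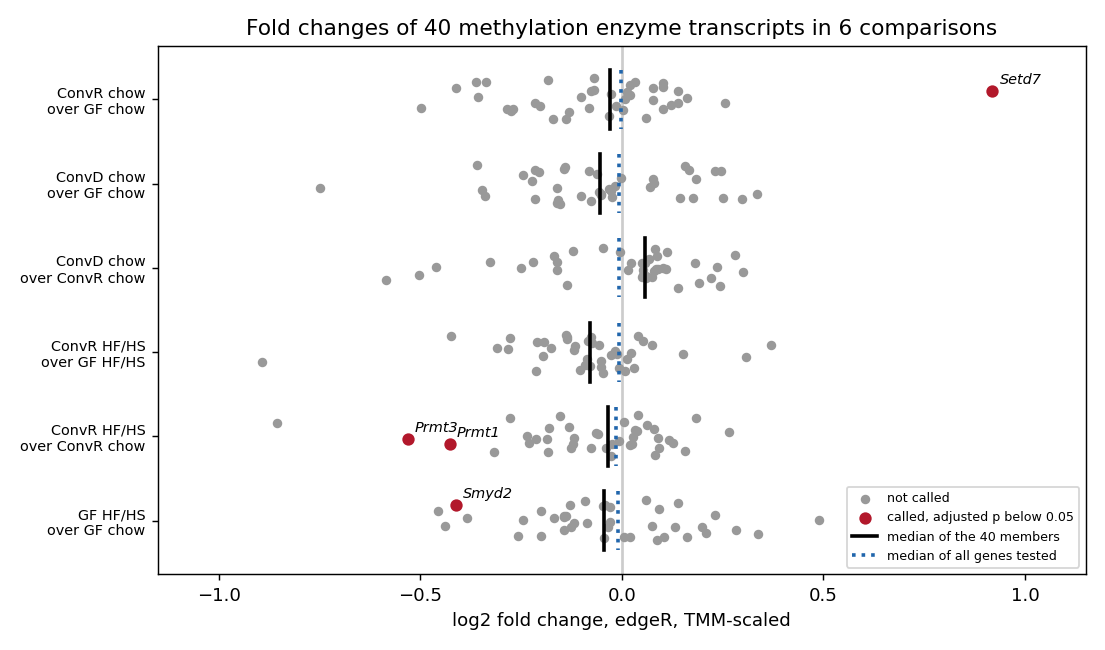
Log2 fold changes of the 40 members in 6 comparisons (grey points not called, red points called at an adjusted p below 0.05), with the members' median as a black line and that of all genes tested as a dotted blue line. All points lay within 1 log2 unit of 0, and each members' median was within 0.1 of 0.

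The members' median log2 fold change was -0.03 between ConvR and GF on chow, -0.05 between ConvD and GF, 0.06 between ConvD and ConvR, -0.08 between ConvR and GF on HF/HS, -0.03 for diet in ConvR mice and -0.04 for diet in GF mice, and the median over all genes was -0.02 to 0.00. These small medians depended on scaling. On log2(TPM + 1), a scale that understates changes of genes with low levels, the median over all genes itself shifted to -0.10, 0.10, 0.21, 0.16, 0.30 and 0.03 in the same order, and the members' median to -0.14, 0.07, 0.27, 0.11, 0.29 and 0.01. With library totals alone the all-gene median was 0.16 between ConvR and GF on HF/HS and 0.19 for diet in ConvR mice, with 0.09 and 0.17 in the members. Relative to all genes the members' medians thus differed by less than 0.1 in each of these cases. Prmt1, called lower by diet in ConvR mice under TMM, had a log2 fold change of -0.23 (adjusted p = 0.0849) with library totals alone and -0.03 (adjusted p = 0.804) on TPM, where the median over all genes was 0.30, and Prmt3 had -0.34 (adjusted p = 0.136) and, on TPM, -0.11, which was not called. Prmt1 and Prmt3 were thus further below the typical gene than below 0 on those scales. On TPM, 20 members (50%) against 49.3% of all genes were called by diet in ConvR mice and 16 (40%) against 30.1% between ConvD and ConvR on chow, and 95.6% and 94.6% of all called genes were then higher, against 46.4% and 39.9% under TMM and 84.8% and 73.5% with library totals. The split of all calls also moved by more than 10 percentage points in the other 4 comparisons with one of these scalings. The share of higher calls was 54.1% under TMM, 40.6% with library totals and 17.1% on TPM between ConvR and GF on chow. It was 40.2%, 63.7% and 88.5% between ConvD and GF, 54.5%, 93.5% and 93.8% between ConvR and GF on HF/HS, and 42.9%, 36.2% and 64.8% for diet in GF mice. Setd7 had 0.47 (adjusted p = 0.0704) on log2(TPM + 1) between ConvR and GF on chow.

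Further lists from the same pathway were read beside the share of all genes called, which was 4.72%, 5.59%, 5.5%, 1.62%, 14.6% and 9.55% in the 6 comparisons in the order above. Of 36 other methylation enzymes tested, 1, 3, 1, 0, 3 and 2 were called, which made 2.78%, 8.33%, 2.78%, 0%, 8.33% and 5.56%. Suv420h2, which di- and trimethylates histone H4 at lysine 20, had 6.67 ± 0.580 CPM in ConvR HF/HS livers and 10.1 ± 0.724 in ConvR chow livers (SD, n = 3 each), a log2 fold change of -0.60 ± 0.13 (adjusted p = 0.00662). It was also lower in ConvD than in ConvR livers on chow (log2 fold change -0.48, adjusted p = 0.0426) and than in GF livers on chow (-0.46, adjusted p = 0.0493). Prmt7, an enzyme of monomethylarginine, was lower on HF/HS than on chow in ConvR mice (-0.40, adjusted p = 0.0265) and in GF mice (-0.39, adjusted p = 0.0402). Mll5, a SET domain protein, was higher in ConvD than in GF livers on chow (0.35, adjusted p = 0.0438) and on HF/HS than on chow in GF mice (0.40, adjusted p = 0.0207). Phf8, a histone demethylase, was higher in ConvD than in GF livers (0.53, adjusted p = 0.0477). Smyd4, of the SMYD family, was lower in ConvR than in GF livers on chow (-0.70, adjusted p = 0.0383), and Smyd1, known from muscle, was lower on HF/HS in ConvR mice (-0.89, adjusted p = 0.0301).

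Of 42 partners and readers of the marks, 2, 2, 1, 0, 4 and 3 were called, or 4.76%, 4.76%, 2.38%, 0%, 9.52% and 7.14%. Wdr82, a subunit of the SETD1 complexes, was higher in ConvR than in GF livers on chow, with 49.2 ± 3.64 against 37.0 ± 3.14 CPM (log2 fold change 0.41, adjusted p = 0.0337). It was also higher on HF/HS in GF mice (0.33, adjusted p = 0.0498). Ring1, a ubiquitin ligase of Polycomb repressive complex 1, was lower in the same comparisons (-0.40, adjusted p = 0.0484, and -0.37, adjusted p = 0.0461). Cbx8, a reader in that complex, was lower in ConvD livers than in those of GF mice on chow (-0.68, adjusted p = 0.0427), and Men1, a partner of the MLL enzymes, was lower in ConvD than in ConvR livers on chow (-0.30, adjusted p = 0.0307). Mbd2, also of this list, was higher in ConvD than in GF livers on chow (0.24, adjusted p = 0.0473). It was higher on HF/HS in GF mice as well (0.23, adjusted p = 0.0356). Aebp2, an accessory subunit of Polycomb repressive complex 2, was higher on HF/HS in ConvR mice, with 20.4 ± 0.999 against 15.5 ± 0.0782 CPM (0.40, adjusted p = 0.00759). Uhrf2, a relative of the Dnmt1 partner Uhrf1 (-0.27, adjusted p = 0.0379), and Wdr77, the partner of Prmt5 in the methylosome (-0.35, adjusted p = 0.0446), were lower there.

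Of 19 genes that supply methyl donor and cofactor, 1, 0, 3, 1, 3 and 1 were called, or 5.26%, 0%, 15.8%, 5.26%, 15.8% and 5.26%. Gnmt, which consumes S-adenosylmethionine in making sarcosine, was lower in ConvR than in GF livers on HF/HS, with 750 ± 103 against 1096 ± 55.1 CPM (-0.55, adjusted p = 0.0481). Nnmt, which methylates nicotinamide, was lower in ConvD than in ConvR livers on chow, with 59.3 ± 8.51 against 179 ± 98.5 CPM (-1.59, adjusted p = 0.0488), and lower on HF/HS in ConvR mice (-1.63, adjusted p = 0.0233). Ogdh, a 2-oxoglutarate dehydrogenase subunit, was higher in ConvD than in ConvR livers on chow (0.51, adjusted p = 0.0103) and higher on HF/HS in ConvR mice (0.59, adjusted p = 0.00110) and in GF mice (0.30, adjusted p = 0.0495). Idh2, which makes 2-oxoglutarate in mitochondria, was higher in ConvD than in ConvR livers on chow (0.49, adjusted p = 0.0321). Mtr, the methionine synthase, was higher on HF/HS in ConvR mice (0.58, adjusted p = 0.0354), and D2hgdh, which converts 2-hydroxyglutarate to 2-oxoglutarate, was lower in ConvR than in GF livers on chow (-0.40, adjusted p = 0.0188). No gene of the 3 lists passed in the interaction. Calls of genes in these lists were not followed with libraries left out. That includes ConvR chow 1 and 2, the libraries with the raised acute phase sums.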

How the data were processed

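Liver RNA of 15 mice was read from poly(A)-selected, stranded libraries. Per the submitters' processing notes, Bowtie2, RSEM 1.2.23 and the mouse build mm9 were used by the authors. The deposited expected counts are RSEM's estimated reads per gene, not scaled between libraries. The deposited TPM values are RSEM's, relative to gene length and to the library's total. Lengths and effective lengths in the files differed by no more than 0.01 bases, so TPM had no correction for fragment length. Groups were read from the sample titles, and each group held 3 separate mice. Depth is given with the samples.

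Expected counts were rounded to whole numbers and fitted with edgeR 4.0.16 in R 4.3.3, with TMM scaling, filterByExpr (minimum count 10) and all 15 libraries in a model of 5 group means with 10 residual degrees of freedom. Differences were tested by the two-sided quasi-likelihood F test, adjusted by Benjamini-Hochberg over 12377 genes and called at 0.05. Standard errors were obtained by dividing the size of the log2 fold change by the root of F, and 95% intervals use the 10 residual degrees of freedom. DESeq2 1.42.0, limma 3.58.1 (voom, and trend on log2(TPM + 1)), other filters, scalings and samples, and removal of a lowess trend (span 0.5) on gene length were alternatives. The fit was also run on counts simulated from its own dispersions and library sizes, which cannot show that it suits these data.

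The members, the 3 pathway lists and the marker lists were chosen with earlier results of these data known. Named were the members past the threshold, or the 3 with the smallest p where none passed. For the pathway lists, genes among the 3 called with the smallest adjusted p in a comparison were named. Other members are named by level, spread or family. Prmt3 and Kdm1b in GF mice, Dnmt3b by diet, the Tet3, Dnmt3a and other values at an unadjusted p under 0.05 and Kdm5b were added after their values were seen. Replicate numbers were not taken as pairs in the main fit. Correlations of deviations between samples of the same number ran between -0.230 and 0.246, and in no comparison were all 3 above 0.1. These correlations cannot settle whether the numbers mark pairs. Promoter windows came from RefSeq on GRCm38.p6 by symbol. The files' build is mm9, so no other coordinates are given.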

Additional observations from a re-analysis of the deposited data

How the results depend on the processing

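Calls were few and most lay near the threshold. With all libraries, 4.72%, 5.59%, 5.5%, 1.62%, 14.6% and 9.55% of all genes were called in the 6 comparisons in the order above. The counts that follow are of members alone, and the share of all genes called can change with the setting too. They therefore do not show whether the members moved more than other genes. With each library left out in turn, the number of members called ran between 0 and 3 for ConvR against GF on chow (1 with all libraries), 0 and 2 for ConvD against GF (0), 0 and 2 for ConvD against ConvR (0), 1 and 3 for diet in ConvR mice (2) and 0 and 2 for diet in GF mice (1), and it was 0 throughout for ConvR against GF on HF/HS and for the interaction. Without ConvR chow 1 and 2 the counts were 0 for ConvR against GF on chow, 1 (Dnmt3b) for diet in ConvR mice and 2 for diet in GF mice. Leaving out GF chow 1 as well, an alternative chosen after seeing the data, gave 0 for ConvR against GF on chow, 1 for ConvR against GF on HF/HS (Dnmt3b) and 1 for diet in ConvR mice. With the compared groups fitted alone the counts were 0, 1 and 0 for ConvR against GF on chow, diet in ConvR mice and diet in GF mice.

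With library totals alone the counts were 2 for ConvR against GF on chow, 3 for ConvD against ConvR, 1 for ConvR against GF on HF/HS, 6 for diet in ConvR mice (neither Prmt1 nor Prmt3) and 0 for diet in GF mice. On log2(TPM + 1) they were 3 for ConvR against GF on chow (Setd7 not among them), 1 for ConvD against GF, 16 for ConvD against ConvR, 1 for ConvR against GF on HF/HS, 20 for diet in ConvR mice, 0 for diet in GF mice and 1 for the interaction (Smyd2). There the interaction of Prmt1 reversed to 0.0090 and that of Suz12 to 0.067, relative to a shift of 0.27 over all genes. With the length trend removed the counts were 2, 3 and 1 in the 3 chow comparisons. With the stricter filter they were 1 for ConvD against ConvR and 2 for diet in GF mice, where no filter gave 0. DESeq2 gave 1 for each ConvD comparison. The cause was not tested. Beside the 16 and 20 members called on log2(TPM + 1) stood 30.1% and 49.3% of all genes.

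With the replicate number as a block the count was 1 (Kdm4a) for ConvD against ConvR and otherwise as without it. With the block and the length trend removed the counts were 2, 1 and 1 in the chow comparisons. Only for ConvD against GF did every sample correlate best with its own number, a hint from the data and not the design. Depth limits Suv39h2, Prmt2 and Tet1, with at most 23 expected counts in any library.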

Other observations

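The deposited gene length is a mean over a gene's transcripts weighted by their estimated abundance, so it differs between libraries only where RSEM divided reads among transcripts in different proportions. It varied for 15 of the 41 members, all with more than 1 transcript. Kdm2b, an H3K36 demethylase that also recruits Polycomb complexes to CG-rich DNA, had lengths between 4063 and 4644 bases. Dnmt3a had 9207 to 9735 bases and Dnmt3b 4098 to 4234 bases over the 15 libraries. No comparison of them between groups was made.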
